A study of Caenorhabditis elegans with 12 samples.

Results

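The solvent control of a drug study in Caenorhabditis elegans is described here as a transcriptome in its own right. All 4 libraries labelled DMSO were taken, out of 12 libraries in the series; the others are 4 libraries of worms given 100 µM bromhexine and 4 of worms given genipin, at 200 µM, and they enter only where the spread within a group is set beside the spread among the DMSO libraries. The worms were hermaphrodites of the wild-type strain N2, grown at 20 °C on agar seeded with the Escherichia coli strain OP50-1 and with streptomycin at 200 µg/mL. As synchronized young adults they were moved to plates with the solvent and with FUDR, and whole worms were collected after 48 h. All 12 libraries carry FUDR and DMSO, so neither agent can be told apart from the baseline itself. The labels place them in 1 batch, give neither the FUDR concentration nor the DMSO percentage, and do not say that the 4 DMSO samples were separate cultures, so the spread between them may be technical in part.

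An adult hermaphrodite makes its sperm as a larva and only oocytes afterwards. The intestine makes vitellogenins, the yolk proteins, which pass through the body cavity and are taken up by growing oocytes through the receptor RME-2. FUDR, fluorodeoxyuridine, is converted in cells to an inhibitor of thymidylate synthase; it blocks DNA synthesis, and is used to keep adults free of hatched progeny. The nonreproductive body of an adult is postmitotic, while the germ line divides and loads oocytes with maternal RNA.

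Library totals were 28051222 counts in replicate 1, 21228311 in replicate 2, 20849258 in replicate 3 and 25902862 in replicate 4. At that depth 3 counts, the limit that a count of 0 allows for a gene, correspond to 0.107 to 0.144 CPM (counts-per-million) in a single library; this limit covers counting error only. Between 16212 and 16587 of 19985 protein-coding genes had a count in a given library. Over the 4 libraries 11427 coding genes had a mean of at least 1 CPM, 7542 of at least 10, 2387 of at least 100 and 89 of at least 1000. Coding genes held 98.9% ± 0.459 (SD, n = 4) of all counts. All 15363 piRNA, 634 tRNA and 129 snRNA genes were at 0 in every library. How RNA was selected for sequencing is not given in the sources used here.

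Yolk genes held the largest counts. The 5 genes of highest mean CPM were vit-6, vit-2, vit-5, vit-4 and vit-3, and the 5 most abundant genes of a library held 9.53%, 7.62%, 8.41% and 9.42% of its counts in replicates 1 to 4. vit-6 (chromosome IV, 8261157 to 8266459, build WBcel235) stood at 26411, 21443, 23641 and 26482 CPM in the same order. vit-2 (chromosome X, 5101042 to 5106169) stood at 25532, 20280, 23261 and 25680 CPM. For both genes replicate 2 was the lowest library and replicates 1 and 4 were within 1 SD of each other. The sixth gene of the family, vit-1, was lower, at 2477 ± 402 CPM (SD, n = 4). The counts of vit-1 to vit-5 carry decimals, the mark of reads divided between similar genes, whereas those of vit-6 do not, so the division among those 5 is less certain than their sum.

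Counts grow with transcript length, so levels were compared between genes as TPM (transcripts-per-million), counts per kilobase of exon scaled to the same total in each library. By that measure the first gene was eef-1A.1 (chromosome III, 6970026 to 6971712), which encodes the translation elongation factor 1 alpha, at 7128 ± 691 TPM. It was followed by vit-6 at 6810 ± 725 TPM and vit-2 at 6759 ± 768 TPM (SD, n = 4 for each), and these 3 did not differ beyond their spread. Behind vit-5 at 5663 ± 681 TPM came far-2, a fatty acid and retinol binding protein, at 4870 ± 646 TPM and C17F4.7 at 4735 ± 398 TPM. sip-1, a small heat shock protein, had 4154 ± 372 TPM. Of the 20 coding genes of highest mean TPM, those with the symbols of ribosomal proteins included rla-0, at 4433 ± 399 TPM, rla-1, rpl-23, rps-25, rpl-10, rpl-2, rps-12, rps-23, rps-24 and rpl-13. The remaining 3 were Y37E3.8, vit-4 and the cuticle collagen col-122, the last at 2938 ± 190 TPM.

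The libraries were similar in how unevenly their counts were spread. Genes that together held 50% of the counts numbered 686, 744, 739 and 712 in replicates 1 to 4, a mean of 720 ± 26.8 (SD, n = 4). By TPM the number was 493.5 ± 21 (SD, n = 4). The 1000 most abundant genes of a library held 55.7% to 56.9% of its counts, and 4350 to 4460 genes held 90% of them.

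Gene classes fell into a wide range. The 6 vitellogenins held 8.96% ± 0.984 (SD, n = 4) of the counts, with 9.79%, 7.71%, 8.66% and 9.70% in replicates 1 to 4. The 81 genes with symbols of cytosolic ribosomal proteins held 6.74% ± 0.440, with 7.19%, 7.03%, 6.31% and 6.42%. Genes without such a symbol, among them Y37E3.8, were not counted in this class. Per length the order of these classes was the opposite: ribosomal proteins held 15.9% ± 0.971 of all TPM and vitellogenins 2.55% ± 0.298 (SD, n = 4 for each).

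**Figure D1:**
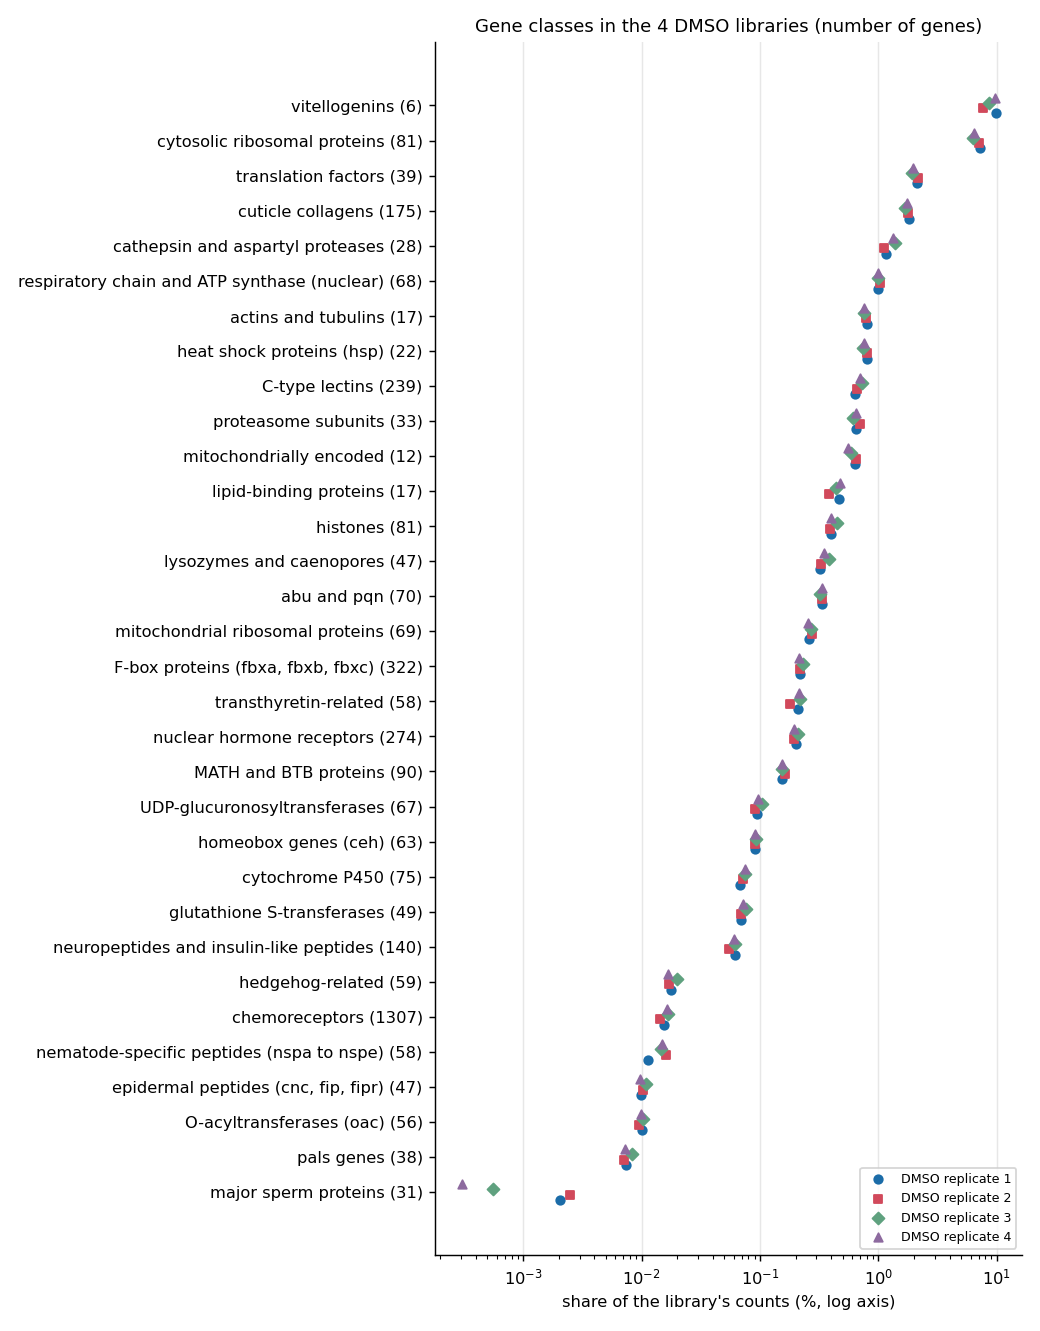
Share of each library's counts (x axis, percent, log scale) held by 32 gene classes, with the number of genes of a class in brackets; each symbol is 1 of the 4 DMSO libraries. The classes run from vitellogenins at 8.96% to major sperm proteins at 0.0013%, and the symbols of a class lie close together except for the major sperm proteins, whose replicates 1 and 2 lie above replicates 3 and 4.

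The 39 genes of translation initiation and elongation factors held 2.05% ± 0.118 of the counts. Their first members by TPM were eef-1A.1, eef-1G at 1550 ± 113 TPM and eef-1B.1 at 1509 ± 129 TPM. Cuticle collagens, the structural proteins of the exoskeleton, held 1.76% ± 0.0644; of 175 genes, 5 had no count and 46 had a mean of at least 10 CPM. col-122, col-119 at 2540 ± 208 TPM and col-140 at 2229 ± 174 TPM led them. Cathepsin and aspartyl proteases, which digest protein in the gut lumen and in lysosomes, held 1.24% ± 0.127, led by asp-6, cpl-1 and asp-1, each at 1705 to 2092 TPM. The 68 nuclear genes of the respiratory chain and ATP synthase held 1.00% ± 0.0184, and the 12 protein-coding genes of the mitochondrial genome held 0.607% ± 0.0429 (SD, n = 4 throughout).

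Within the mitochondrial genome COX1, a subunit of cytochrome c oxidase, had 1936 ± 61.0 TPM, COX2 had 1397 ± 176 and COX3 had 1358 ± 179. The NADH dehydrogenase subunit ND4L was the lowest of the 12, at 0.21 ± 0.10 CPM, or 1.25 ± 0.58 TPM. It is short and was chosen for mention after its value was seen.

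Proteasome subunits held 0.652% ± 0.0355 of the counts, heat shock proteins 0.769% ± 0.0317 and C-type lectins 0.680% ± 0.0411. hsp-90 and hsp-1, cytosolic chaperones present without stress, stood at 1469 ± 108 and 1405 ± 115 TPM. The stress-induced hsp-70 had 19.1 TPM, and the small heat shock genes hsp-16.2 and hsp-16.41 had 44.97 and 42.86 TPM. Of the same family hsp-16.11 had 218 and hsp-16.49 had 182 TPM, with nearly identical copies that share their reads. Families that include drug metabolism enzymes, beside members with other roles, held small shares. The 75 cytochrome P450 genes held 0.0724% ± 0.00319 and 67 UDP-glucuronosyltransferase genes held 0.0964% ± 0.00556. The 49 glutathione S-transferase genes held 0.0720% ± 0.00358 (SD, n = 4 throughout). The median genes of these families lay around the 2.61 TPM of the median coding gene, at 2.27, 4.90 and 3.01 TPM in that order. Likewise 49, 49 and 32 of their genes had a mean of at least 1 CPM. The most abundant of them by TPM were gst-1 at 295 ± 15.1 TPM and gst-7 at 290 ± 23.3 TPM, while cyp-31A2 led the cytochromes at 78.4 ± 8.94 TPM and ugt-22 the glucuronosyltransferases at 70.6 ± 5.90 TPM.

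Each list of tissue markers had counts in every one of these whole worm libraries, and every somatic, germ line and eggshell marker had a count. These levels do not measure tissue size: in whole worms, fewer cells of a type and less RNA per cell cannot be told apart, and each list holds other genes. Among the marker lists germ line and oocyte genes had the highest sum, with 14510 ± 1114 TPM over 34 genes, and eggshell genes next, with 11932 ± 771 TPM over 17 genes (SD, n = 4 for each). Every gene of both lists had a mean of at least 10 CPM. The germ line list was led by cey-2, an RNA-binding cold shock domain protein, at 2603 TPM, pos-1, a zinc finger protein of the early embryo made from maternal RNA, at 1272 TPM, and cgh-1, an RNA helicase of germ granules, at 1044 TPM. cpg-2 and cpg-1, chondroitin proteoglycans of the eggshell, had 2677 and 1910 TPM, and perm-4, of the permeability barrier, had 1902 TPM.

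**Figure D2:**
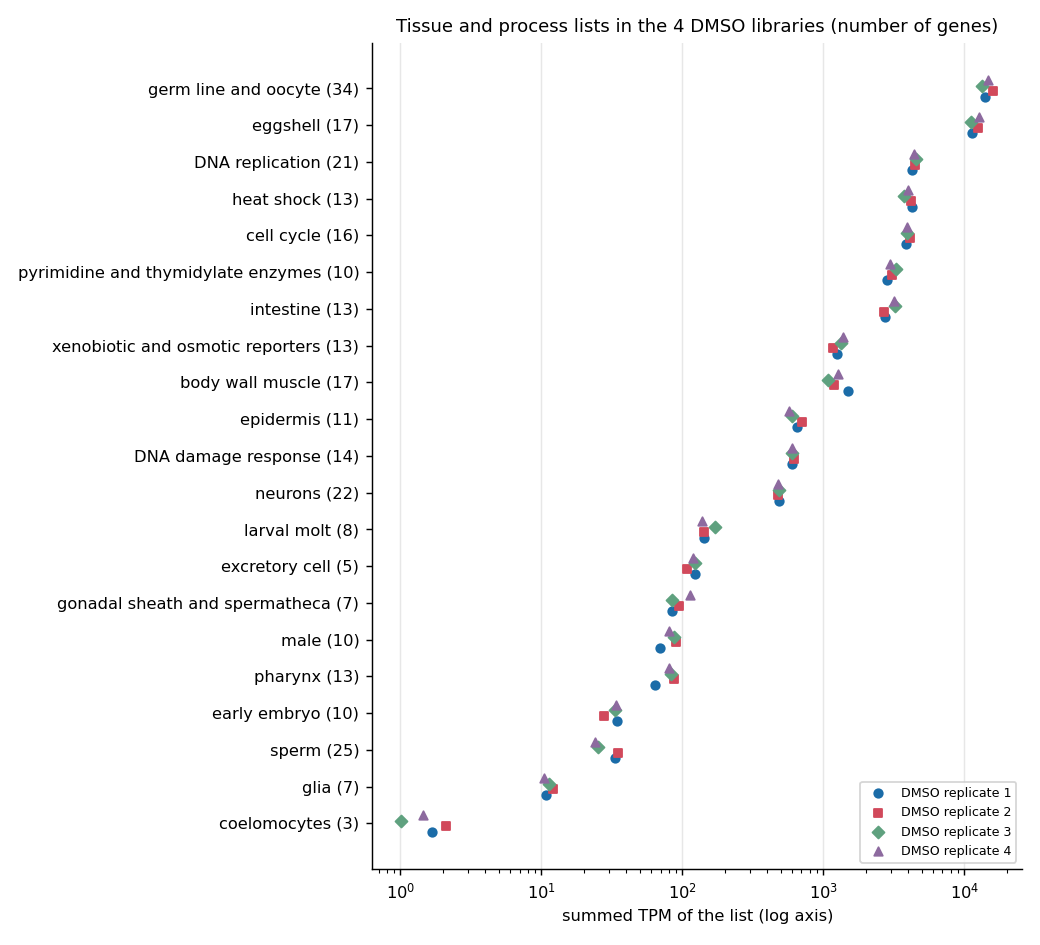
Summed TPM (x axis, log scale) of 21 lists of tissue markers and cell processes, with the number of genes in brackets; each symbol is 1 of the 4 DMSO libraries. Germ line and eggshell lists lie highest, at means of 14510 and 11932 TPM, and coelomocyte markers lie near 1.57 TPM.

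The lists of somatic markers had lower sums, which do not rank the tissues themselves. Vitellogenins, made in the intestine, summed to 25455 ± 2979 TPM and cuticle collagens to 24747 ± 997 TPM (SD, n = 4 for each), both above the germ line list. The 13 intestinal markers summed to 2955 ± 290 TPM, led by the aspartyl protease asp-1 at 1705 TPM, the cathepsin B protease cpr-1 at 529 TPM and the microvillar actin act-5 at 279 TPM. The 17 markers of body wall muscle summed to 1261 ± 174 TPM, led by pat-10 (troponin C) at 340 TPM, unc-27 (troponin I) at 225 TPM and the myosin light chain mlc-3 at 174 TPM. The 11 epidermal markers summed to 632 ± 58.4 TPM, of which the adult collagen col-19 held 407 TPM. The 22 neuronal markers summed to 482 ± 5.66 TPM. Of these, snb-1, the synaptobrevin of synaptic vesicles, held 340 TPM, while unc-17, unc-47, cha-1 and tph-1, which mark single transmitter types, were each under 1 CPM on average.

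The 13 pharyngeal markers summed to 78.5 ± 10.2 TPM, the 5 excretory markers to 118 ± 7.52, the 7 markers of gonadal sheath and spermatheca to 94.3 ± 14.05 and the 7 glial markers to 11.2 ± 0.736 (SD, n = 4 throughout). The 3 coelomocyte markers summed to 1.57 ± 0.455 TPM, and cup-4, unc-122 and lgc-26 were each at 1.02 CPM or less on average. Markers of the molt, which young adults have completed, summed to 149 ± 15.1 TPM, led by noah-1 and noah-2, proteins of the larval outer matrix, at 60.7 and 38.7 TPM.

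Genes of nucleotide synthesis and genome copying were counted in these worms, the former at means of 5.74 to 1565 TPM. Every library carries FUDR, so a change by FUDR was not tested. tyms-1, which encodes thymidylate synthase, the enzyme that FUDR blocks, stood at 121, 126.2, 139 and 129 CPM in replicates 1 to 4, or 175 TPM on average. rnr-2 and rnr-1, the subunits of ribonucleotide reductase, had 1565 and 431 TPM, and dut-1, the dUTPase that keeps uracil out of DNA, had 398 TPM. upp-1, the uridine phosphorylase, had 137 TPM, umps-1, which makes uridine monophosphate, 132 TPM, and ung-1, the uracil DNA glycosylase, 95.8 TPM. cdd-2 and cdd-1, cytidine deaminases, had 75.7 and 5.74 TPM, and pyr-1, the enzyme of the first steps of pyrimidine synthesis, 25.97 TPM. The 10 genes of this list summed to 3041 ± 175 TPM. The 21 DNA replication genes summed to 4408 ± 105 TPM and the 16 cell cycle genes to 3951 ± 102 (SD, n = 4 for each). pcn-1, the sliding clamp of DNA polymerase, led the former at 880 TPM, and the mitotic cyclin cyb-3 led the latter at 1307 TPM.

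Genes that respond to DNA damage summed to 607 ± 8.69 TPM over 14 genes. chk-1, a checkpoint kinase, had 115 TPM, rad-51, the recombinase, 99.2, and cep-1, the p53 homolog, 39.7. The 2 targets through which CEP-1 starts cell death were low. egl-1 stood at 2.74, 2.92, 3.36 and 1.78 CPM in replicates 1 to 4, and ced-13 at 0.07 CPM on average. The mean of ced-13 lay under the limit that a count of 0 allows in a single library. It lay above the 0.0312 CPM that 0 counts allow at the summed depth of the 4 libraries.

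Zygotic genes of the early embryo were low beside the maternal RNAs above, and 4 of 10 had a mean of at least 1 CPM. Their 10 members summed to 22.99, 19.5, 22.9 and 22.8 CPM in replicates 1 to 4. pes-1, a forkhead gene, had 9.41 ± 1.82 CPM, pes-10 had 4.39 ± 0.860 and the homeobox gene ceh-51 had 4.05 ± 0.951 (SD, n = 4 for each). end-1 and end-3, the GATA factors that specify the intestine, had 1.55 and 0.63 CPM. med-1 had no count and med-2 had 0.03 CPM, although their near-identical sequences could divide reads. med-2 therefore lay under the limit set by 3 counts.

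Most male and sperm genes were under 1 CPM: 2 of 10 male genes and 5 of 25 sperm genes had a mean of at least 1 CPM, and 1 male and no sperm gene was at 0. Of 10 male genes, plg-1, a mucin gene named for the copulatory plug, held 28.2, 38.7, 36.1 and 33.7 CPM. Whether these counts come from a working plg-1 transcript was not tested. The seminal fluid protease gene try-5 held 4.99, 5.09, 6.19 and 4.94 CPM. The rest of the male genes were each at or under 0.41 CPM on average. pkd-2 and lov-1, which act in male sensory neurons, had 0.14 and 0.11 CPM, and cwp-3 had no count. Of 25 sperm genes only spe-44, a transcription factor of the spermatocyte, had a mean above 10 CPM, at 15.5 ± 1.13, and spe-41 followed at 6.19 CPM. The rest were each at or under 1.59 CPM.

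Major sperm proteins, the cytoskeleton of crawling sperm, set the libraries apart in pairs. The 31 genes summed to 20.4 CPM in replicate 1, 24.8 in replicate 2, 5.54 in replicate 3 and 3.05 in replicate 4, an 8.13-fold range. Replicates 1 and 2 were the high pair and replicates 3 and 4 the low pair. The members of highest mean CPM, msp-76 and msp-31, had the same pairs but a smaller split. msp-76 gave 1.069, 1.319, 0.863 and 0.618 CPM in replicates 1 to 4, and msp-31 gave 1.089, 1.304, 0.785 and 0.579 CPM. The split was larger in msp-33 (chromosome II, 4892311 to 4892694), at 1.248, 1.46, 0.38 and 0.04 CPM. These values rest on 35, 31, 8 and 1 counts. The sperm phosphatase gene gsp-3 gave 1.21, 0.99, 0.24 and 0.04 CPM in the same order. gsp-3 was chosen after its values were seen. The list of 25 sperm genes had the same pairs but a smaller split. It summed to 31.5, 32.5, 28.9 and 27.8 CPM, a ratio of 1.17. By TPM the list summed to 33.3, 34.8, 25.03 and 24.1 in the same order. spe-44, the list's highest member by CPM, stood at 14.5, 15.6, 17.03 and 14.9 CPM, with replicate 3 highest. This gene held a large part of the list's CPM and did not follow the pairs. The summed counts behind the class were 572, 527, 116 and 79.0 in replicates 1 to 4, and 3 of its genes had none. Germ line markers, by contrast, were at 17079, 19328, 16064 and 17673 CPM, with replicate 2 highest and replicate 1 below replicate 4.

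Silent genes formed the other end of the range. In 2155 of 19985 coding genes, or 10.8%, no read was counted in any of the 4 libraries, whose summed depth limits such a gene to 0.0312 CPM. Allowing at most 3 counts in all gave 3454 genes, and a mean under 0.1 CPM gave 4752 genes, or 23.8%. Chromosome V held 987 of the 2155 genes, or 45.8%, and 472 of those 987 were chemoreceptor genes.

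Chromosomes differed in the same sense. On chromosome V 19.8% of 4994 coding genes had no count and the median gene had 0.517 TPM. On chromosome III 5.15% of 2640 genes had no count and the median gene had 16.44 TPM, followed by chromosome I with 6.50% and 11.8 TPM. Chromosomes II, IV and X lay between, with medians of 2.76, 2.73 and 2.33 TPM. Chromosomes I and III held 19.1% and 19.2% of all counts, and chromosome X held 13.4% ± 0.899 (SD, n = 4). The vitellogenin genes other than vit-6 stand on the X chromosome.

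Families were formed from coding genes that share the letters of their symbol, with at least 10 members, which gave 175 families. In 103 of them no gene was at 0. Only 2 met the rule for a silent family, at least 75% of members without a count. All 10 nspa genes, a family of nematode-specific peptides with 9 members on chromosome V, were at 0, among them nspa-1, nspa-8 and nspa-5. Each has 105 bases of annotated exon, less than the read length of 150 nt, and the part of length in their absence was not tested. Of the 10 nspd genes 8 were at 0, and nspd-3 and nspd-2 had 1 count each. Their exons add up to 213 to 222 bases. The related group nspc had no gene at 0, and nspc-12 was at 17.3, 24.6, 22.3 and 25.8 CPM in replicates 1 to 4.

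**Figure D3:**
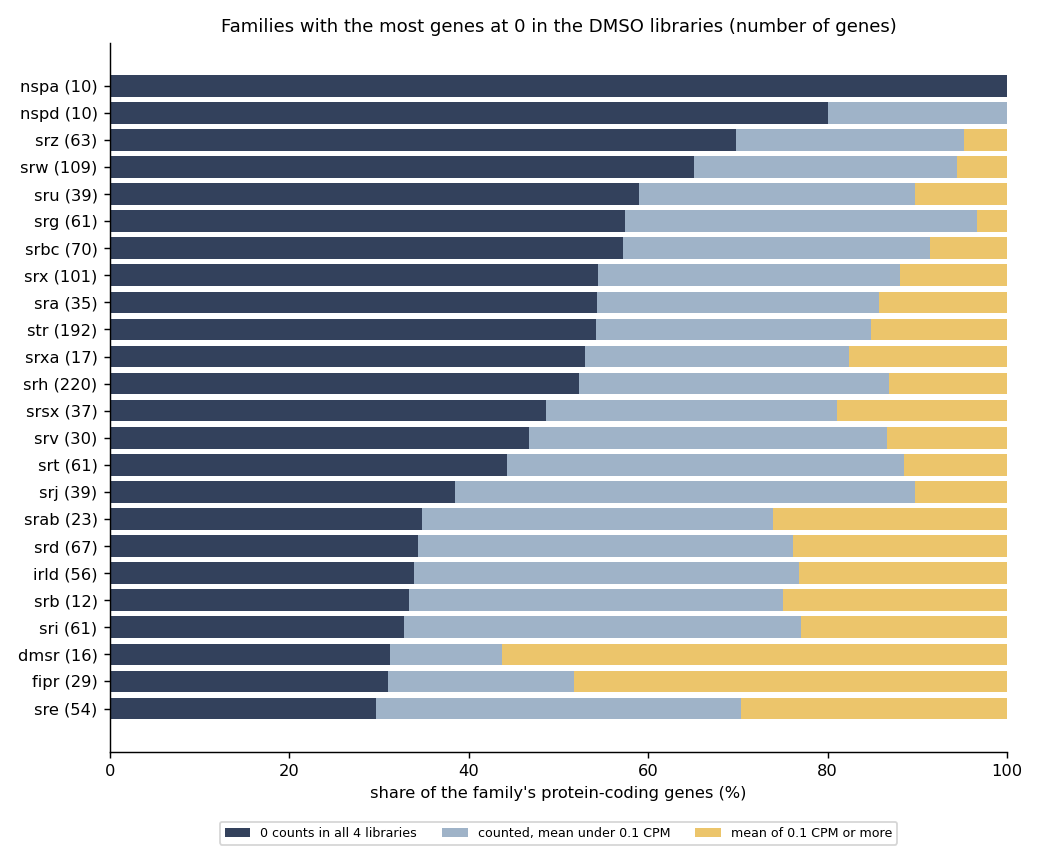
Share of each family's protein-coding genes (x axis, percent) with 0 counts in all 4 DMSO libraries, with counts but a mean under 0.1 CPM, and with 0.1 CPM or more, for the 24 families with the largest share at 0 (number of genes in brackets). The nspa and nspd families are followed by families of chemoreceptors, from srz at 69.8% to srh at 52.3% and below.

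Next in order came families of chemoreceptors, G protein-coupled receptors that most often act in a few sensory neurons each. The srz family had 44 of 63 genes at 0, srw 71 of 109, sru 23 of 39, srg 35 of 61 and srbc 40 of 70. The largest, srh and str, had 52.3% of 220 and 54.2% of 192 genes at 0. In all, 662 of 1307 chemoreceptor genes had no count, which is 30.7% of all silent coding genes, and 1122, or 85.8%, had a mean under 0.1 CPM. Under that wider rule 21 of the 175 families were silent, and 17 of the 19 chemoreceptor families were among them. The class summed to 153, 144, 169 and 164 CPM in replicates 1 to 4. A mean of at least 1 CPM was reached by 29 of the 1307 genes. The highest 3 were sri-40, which had 10.9 ± 1.91 CPM, srr-4, which had 10.5 ± 1.96, and srh-237, which had 9.64 ± 1.33 (SD, n = 4 for each).

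Other large families were nearer to the 10.8% of all coding genes at 0. Of 322 F-box genes of the fbxa, fbxb and fbxc groups, 10 were at 0, or 3.11%, and no fbxb gene was among them. Of 274 nuclear hormone receptor genes 30 were at 0, or 10.9%, and sex-1, which reads the number of X chromosomes, led them at 134 ± 13.8 TPM. Of 239 C-type lectins, secreted proteins of which many respond to microbes, 43 were at 0, or 17.99%, and 46.9% had a mean under 0.1 CPM, beside 23.8% of all coding genes. Insulin-like peptide genes had 6 of 38 at 0, or 15.8%, and all 31 flp neuropeptide genes were counted.

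The 4 libraries resembled each other closely. Spread was measured on log2 CPM with TMM scaling over 7626 genes with a mean of at least 10 CPM. The median gene had an SD of 0.09 on this log2 scale and a ratio of 1.16 between its highest and lowest library. edgeR gave a common biological coefficient of variation of 8.96%. At least 2-fold between the highest and the lowest library were 50 genes, 0.656% of those measured, and at least 1.5-fold were 345 genes, 4.52%. Between pairs of libraries, 6 genes differed at least 2-fold for replicates 1 and 4 and 24 for replicates 1 and 2. Without replicate 1 the count of 50 became 28 and without replicate 2 it became 22, so both libraries carry much of it. With a lower limit of 1 CPM it was 556, and with a limit of 50 CPM it was 11.

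Of the 50 genes 45 were protein-coding, 3 were rRNA genes, 7 were cuticle collagens and 14 had counts with decimals in some library, which shows reads divided between similar genes; of all 7626 genes 519 had decimals. Replicate 3 was the highest library for 18 of the 50, beside 32.1% of all 7626 genes. Replicate 2 was the lowest for 19 and replicate 1 for 18, beside 29.6% and 25.6% of all genes.

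**Figure D4:**
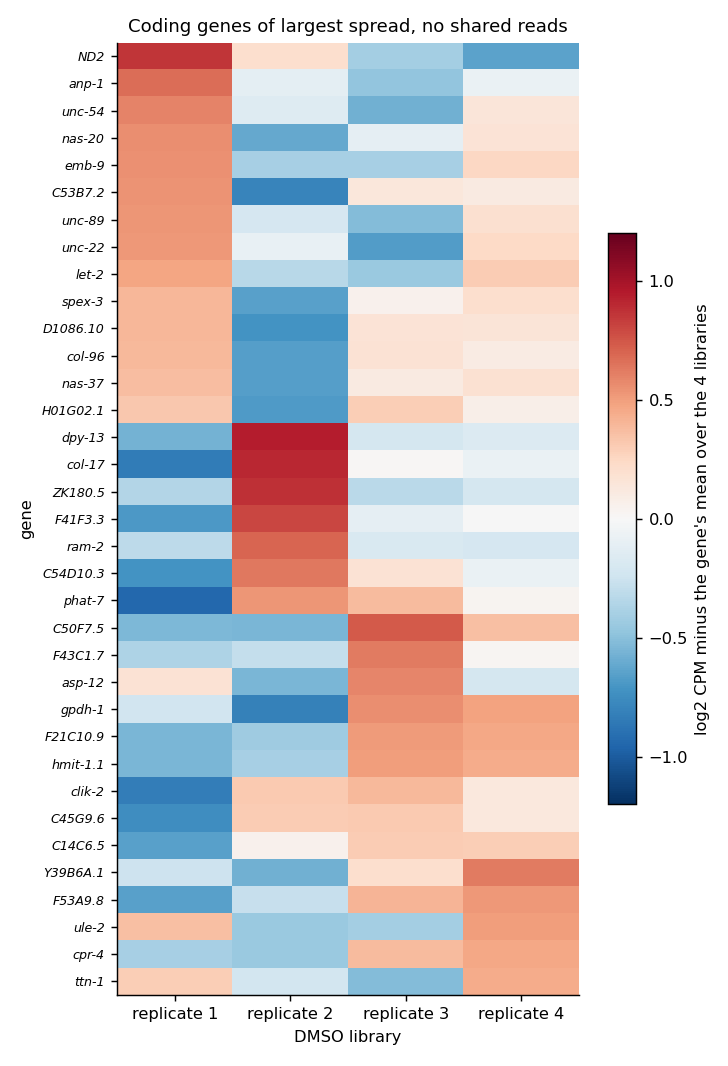
Deviation of log2 CPM from the gene's mean over the 4 DMSO libraries (colour scale) for 35 genes. These are the protein-coding genes with no decimals among the 50 of largest SD, of which 43 were also at least 2-fold apart. Rows are ordered by the library in which a gene is highest: 14 genes in replicate 1, 7 in replicate 2, 9 in replicate 3 and 5 in replicate 4.

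Some collagens with a large spread were highest in replicate 2. dpy-13, a cuticle collagen needed for normal body length, stood at 7.99, 23.6, 10.5 and 10.7 CPM in replicates 1 to 4. col-17 stood at 8.09, 28.2, 15.1 and 13.9 CPM. ram-2, which is not in the collagen class counted here, stood at 13.7, 28.7, 15.4 and 14.98 CPM. In each case replicate 2 was alone at the top. It was not so for all collagens: col-155 had 51.2, 25, 66.0 and 44.5 CPM, with replicate 2 lowest. Of the 46 collagens with at least 10 CPM, 17 differed at least 1.5-fold and 7 at least 2-fold, beside 4.52% and 0.656% of all genes. Those shares over all genes were not matched for abundance. Among the 7, col-117, col-155, col-167 and col-10 had counts with decimals. The part of divided reads in their spread was not tested. Replicate 2 was highest for 16 of the 46 and lowest for 13, near the shares of 27.4% and 29.6% over all genes, and replicate 3 was lowest for 18. The abundant collagens col-122, col-119 and col-140 differed by less than 1.5-fold.

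Muscle genes were high in replicate 1 and low in replicate 3. Replicate 1 was the highest library for 12 of 14 muscle markers and replicate 3 the lowest for 13 of 14; over all 7626 genes the shares were 23.9% and 27.7%. unc-54, the major myosin heavy chain of body wall muscle, stood at 451, 277, 204 and 333 CPM in replicates 1 to 4. unc-22, the giant kinase twitchin, stood at 55.3, 37.6, 24.7 and 46.0 CPM. Collagen IV of basement membranes also had replicates 1 and 4 above replicates 2 and 3, with emb-9 at 170, 91.7, 90.3 and 140 CPM and let-2 at 290, 171, 156 and 259 CPM. The laminin genes lam-1 and lam-2 did not: lam-1 stood at 258, 256, 302 and 257 CPM, with replicate 3 highest. The basement membrane genes, unc-54, hmit-1.1 and cpr-4 were chosen after their values were seen.

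Intestinal markers were most often lowest in replicate 2. It was the lowest library for 12 of 13 intestinal markers and for all 6 vitellogenins, beside 29.6% of all genes. The 13 markers summed to 2409, 2372, 2851 and 2785 CPM in replicates 1 to 4, so replicate 1 was nearly as low. cpr-1 stood at 307, 339, 501 and 476 CPM, and the related protease cpr-4 at 146, 145, 254 and 267 CPM, so that replicates 3 and 4 lay above replicates 1 and 2 for both. The same split held for gpdh-1, a glycerol-3-phosphate dehydrogenase known to be induced by high salt, at 49.7, 34.2, 87.6 and 82.0 CPM. It held for hmit-1.1, a myo-inositol transporter of the same response, at 24.2, 27.7, 51.2 and 48.6 CPM.

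The germ line showed small shifts in a shared direction. Replicate 2 was highest for 23 of 34 germ line markers and for 14 of 17 eggshell genes, beside 27.4% of all genes, and replicate 3 was lowest for 22 and 11 of them, beside 27.7%. 1 germ line marker and no eggshell gene differed by 1.5-fold or more. Proteasome subunits had the same pattern, with replicate 2 highest for 24 of 33 and replicate 3 lowest for 26. Ribosomal protein genes were highest in replicate 1 in 62 of 79 cases and lowest in replicate 3 in 51, and 1 of the 79 reached 1.5-fold. The median SD of log2 CPM was 0.11 in the germ line list and 0.12 in the ribosomal protein class, beside 0.09 over all genes and 0.28 in the muscle list.

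The sums of some lists differed little between libraries, although a sum averages out changes in single genes. Neuronal markers summed to 384, 380, 379 and 376 CPM in replicates 1 to 4, a ratio of 1.02 between the highest and the lowest. Excretory markers had a ratio of 1.01, homeobox genes of the ceh group 1.02, DNA damage genes 1.04 and DNA replication genes 1.05. The median SD of log2 CPM of the single genes was 0.17 for the excretory and 0.13 for the ceh genes, above that of the germ line list. The 5 genes of smallest SD among those with at least 100 CPM were cmtr-1, C17E4.6, K10C3.4, srp-7 and Y37E11AL.3. cmtr-1, an mRNA cap methyltransferase, stood at 103.9, 108, 106 and 105 CPM.

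Replicate 3 stood apart in ribosomal RNA. rRNA genes held 0.246%, 0.321%, 1.08% and 0.257% of the counts in replicates 1 to 4. rrn-3.1, which encodes the large ribosomal RNA, stood at 1596, 2237, 7290 and 1701 CPM, and rrn-1.1 and rrn-1.2, the copies of the small one, each at 392, 444, 1723 and 394 CPM. Without the rRNA genes 47 genes were at least 2-fold apart in place of 50, and without replicate 3 there were 35. Replicate 3 also had the lowest total and was the lowest library for most muscle and germ line markers; the part of rRNA or depth in those results was not tested. Among noncoding genes rncs-1, an RNA that binds Dicer, stood at 12.1, 26.4, 45.1 and 26.7 CPM.

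The genes at the head of the ranking were near-identical copies. pud-2.1 stood at 49.0, 90.9, 1.21 and 92.5 CPM in replicates 1 to 4 and pud-2.2 (chromosome V, 2323010 to 2323520) at 49.0, 1.05, 96.5 and 0.01 CPM. Their sum was 98, 91.9, 97.7 and 92.5 CPM, a ratio of 1.07. numr-1 and numr-2, known as genes that respond to metals, traded places likewise: numr-1 was at 0, 9.49, 25.6 and 9.88 CPM and numr-2 at 19.6, 9.49, 0 and 9.88 CPM. Their sum was 19.6, 18.98, 25.6 and 19.8 CPM, a ratio of 1.35. For pes-2.1 and pes-2.2 the sum kept replicate 2 lowest, at 80.3, 61.1, 76.5 and 84.5 CPM. In the pairs hsp-16.1 with hsp-16.11 and hsp-16.48 with hsp-16.49, nearly all counts went to 1 copy in each library, and the sums had ratios of 1.34 and 1.18.

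**Figure D5:**
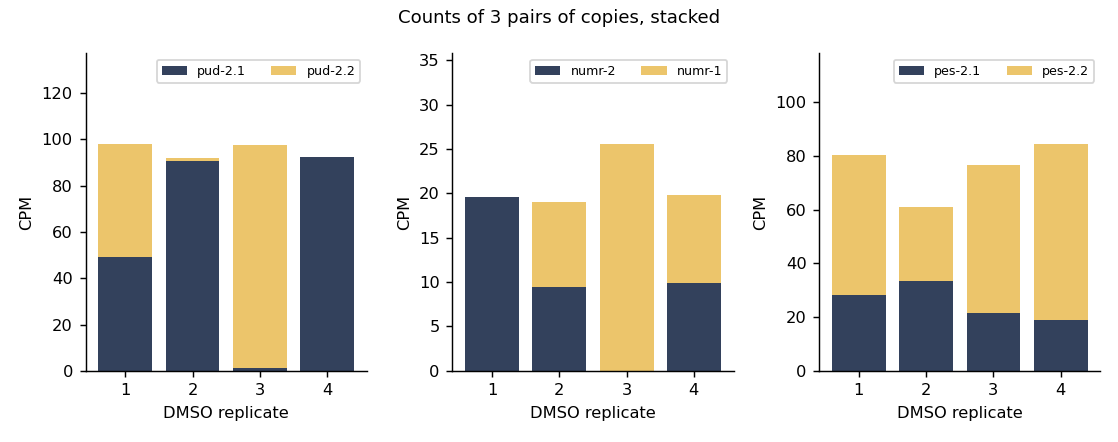
CPM (y axis) of 3 pairs of near-identical genes in the 4 DMSO replicates (x axis), stacked by copy. For pud-2.1 and pud-2.2 the total stays between 91.9 and 98 CPM while the division between copies changes from library to library.

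The genes that varied among the DMSO libraries could be measured in libraries that did not choose them. Without decimals and protein-coding were 35 of the 50 genes. Among the 4 bromhexine libraries 27 of them had at least 10 CPM and 5, or 18.5%, were at least 2-fold apart, beside 61 of 7185 genes, 0.849%. Among the 4 genipin libraries it was 7 of 26, or 26.9%, beside 68 of 7525 genes, 0.904%. Without genipin replicate 1 the counts were 4 of 26, or 15.4%, beside 46 genes, 0.611%. Their median SD of log2 CPM was 0.37 in the bromhexine group and 0.36 in the genipin group, beside 0.10 and 0.11 over all genes. The shares over all genes were not matched for abundance to the genes chosen. In the DMSO libraries the number of genes 2-fold apart changed with the lower limit of CPM, as given above. No level was compared between the groups.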

How the data were processed

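RNA of whole worms was read on a HiSeq4000 with read pairs of 150 nt, per the labels. The submitters' processing notes name FastQC, STAR 2.7.11b, RSEM 1.3.3 and the build WBcel235. The deposited values are the authors' expected counts of RSEM, raw and not scaled, which divide a read that matches several genes between them; 2.02% to 2.23% of the values of a DMSO library carried decimals, in genes that held 11.2% to 12.6% of the counts. Which annotation was used, any trimming and how RNA was selected: these were not given in the sources used here. Labels give the sample of each of the 12 columns, and 4 are the DMSO libraries.

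Symbols, positions, gene types and exon lengths came from the WBcel235 annotation of Ensembl release 115; symbols missing or shared there were taken from the RefSeq table of the same build at the same position. CPM were counts over the library's total, and TPM were counts per kilobase of merged exons. With 1 group there is no test: shares and levels are given as mean and SD over libraries. For spread, rounded counts went into edgeR 4.0.16 (R 4.3.3) for the 7626 genes with a mean of at least 10 CPM, with TMM scaling and log2 CPM at a prior count of 2. The procedure was checked on simulated counts with known changes. Named genes are the 20 coding genes of highest TPM and 10 of highest CPM, up to 3 of highest TPM per list or class, the 20 of largest and 5 of smallest SD, up to 3 per silent family, up to 5 extremes per library, and any gene of the pyrimidine, DNA damage, male, early embryo and sperm lists; others are shown as second members of a list or copy pair or were chosen after their values were seen. Alternatives were TPM, totals without rRNA genes, other scalings, filters and prior counts, other limits for silence, and each library left out. The libraries, lists and rules were chosen with earlier results of these data known.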

Additional observations from a re-analysis of the deposited data

Results flagged for a closer look

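In each of 58 gene groups and 134 named genes the highest or the lowest of the 4 DMSO libraries was compared with the rest by its gap over the whole range, a rule that chance meets in about 1 of 20 groups of values. That rate does not hold for named genes picked for their spread, as extremes of a library or after their values were seen. ram-2, rrn-3.1 and lam-1 are among those. The rule was met 21 times, by 8 groups and by single genes, and 12 of the 21 were replicate 3 as the highest library. These flags overlap: the rRNA group holds rrn-3.1, rrn-1.1 and rrn-1.2, and the molt group holds noah-1.

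Replicate 3 was far above the others for rRNA genes, at 10835 CPM against 2455 to 3214, and for rrn-3.1 at 7290 CPM and rrn-1.1 and rrn-1.2 at 1723 CPM each. It was also highest for histones at 4485 CPM against 3872 to 3955, for molt genes at 401 CPM against 318 to 327 with noah-1 at 199.8 CPM, and for the laminin genes lam-1 at 302 CPM and lam-2 at 320 CPM. Smaller gaps in the same library were seen for homeobox genes of the ceh group at 922 CPM against 905 to 906, for try-5 at 6.19 CPM and for cdd-1 at 5.13 CPM. It was lowest for the abu and pqn genes, at 3226 CPM against 3341 to 3355.

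Replicate 2 was highest for ram-2 at 28.7 CPM, for nuclear respiratory chain genes at 10286 CPM against 9886 to 9942 and for DNA damage genes at 940 CPM against 902 to 906, and lowest for zygotic early embryo genes at 19.5 CPM against 22.8 to 22.99. Replicate 1 was highest for hsp-16.48 at 0.629 CPM, a copy that shares reads with hsp-16.49. Replicate 4 was highest for srh-237 at 11.6 CPM. In nspd-2 and nspd-3 the flagged values of 0.0356 and 0.0471 CPM were 1 count each.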

How the results depend on the processing

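By TPM in place of counts, the share of vitellogenins was 2.55%, of ribosomal proteins 15.9%, of collagens 2.47%, of germ line markers 1.45%, of eggshell genes 1.19%, of intestine 0.295%, of muscle 0.126% and of neurons 0.0482%; the construction of TPM, which divides by length, sets this shift. Silent coding genes numbered 3454 with at most 3 counts and 4752 under 0.1 CPM, and silent families 12 and 21. The 50 genes at least 2-fold apart became 556 with a mean of at least 1 CPM, 11 with at least 50 CPM and 345 at 1.5-fold, and 22 to 45 when a library was left out; RLE, upper quartile and total count scaling gave 50, 51 and 48. Of the 20 genes of largest SD, 3 remained with the limit of 1 CPM and 6 with that of 50 CPM. Leaving out a library gave 712 to 732 genes for 50% of the counts, 2375 to 2450 silent coding genes and a coefficient of variation of 8.11% to 10.02%. Totals without rRNA genes kept 56 of 57 shares within 1 SD. Without genes with decimals 36 genes were 2-fold apart. A count of 0 in a single library allows a level of up to 0.107 to 0.144 CPM. No paired analysis was possible because the libraries form 1 group and no result comes from a test.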

Other observations

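Other gene groups had levels that the comparisons above did not use. Among 81 histone genes, which held 0.406% ± 0.0283 of the counts, the variant histones htz-1 and his-72 led at 1854 ± 112 and 1566 ± 170 TPM, and 12 genes had a mean of at least 10 CPM. Transthyretin-related genes, a secreted family enlarged in nematodes, summed to 4665 ± 409 TPM over 58 genes, led by ttr-50 at 722 ± 84.0 TPM. Lysozymes and caenopores, antimicrobial proteins of the gut, summed to 8116 ± 691 TPM, led by spp-5 at 1759 ± 139 TPM. Neuropeptide and insulin-like genes summed to 1597 ± 114 TPM over 140 genes, with nlp-40, made in the intestine, at 301 ± 17.8 TPM (SD, n = 4 throughout).

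The 5 ule genes, named for a uterine lumen where their proteins were found, were chosen after their values were seen. ule-4 stood at 466, 253, 418 and 377 CPM in replicates 1 to 4, with replicate 2 lowest, whereas ule-3 stood at 292, 383, 359 and 453 CPM, with replicate 1 lowest. Of the 5 genes 4 differed at least 1.5-fold between libraries.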
